A study of Mus musculus with 8 samples.

Results

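Solute carriers are membrane proteins that move small molecules across the plasma membrane or across the membranes of mitochondria, lysosomes, endoplasmic reticulum and Golgi. Their genes carry the prefix Slc, a family number and a member number, and the families are grouped largely by sequence, so that a family often shares a kind of substrate. The members described here were chosen by name and detection: every gene name that starts with SLC and a digit and whose detection p-value was below 0.05 on at least 4 of 8 arrays. Of 18138 gene names in the table of intensities, 307 were SLC names, and 106 of these passed. The other 201 stayed below the rule, 142 of them detected on no array. Of the 106 members, 103 are carriers or their partner chains and 3 are proteins named after a carrier that do not transport (Slc9a3r1, Slc4a1ap and Slc7a6os). A resting T cell takes up little, and a T cell that has met its antigen is known to raise the uptake of glucose, amino acids, nucleosides, iron and vitamins as it grows.

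The RNA came from mouse OT-1 cells, which are CD8+ T cells with a transgenic receptor for SIINFEKL, a peptide of ovalbumin presented by H2-Kb. In both groups the T cells had been cultured for 24 h at a ratio of 5 to 1 with LPS-matured, peptide-loaded antigen-presenting cells and then sorted as CD8+ CD69+. In the cB group (4 arrays) the stimulators were B cells activated through CD40, and in the DC group (4 arrays) they were dendritic cells. No unstimulated T cells are among the samples, so every value below compares T cells activated by one stimulator with T cells activated by the other. The labels do not say whether the arrays of a group stem from different cultures or mice. The p-values therefore reflect the scatter among these arrays alone, and that scatter may be technical.

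Mean intensity per array lay between 602 and 824, and 38.3% to 40.8% of all gene names were detected on an array. Of 9 T cell markers measured, from a list of 10, 8 were detected on all arrays, 2 of them higher in cB and 3 in DC. Cd8a, a chain of the sorted CD8, was detected on none and Cd8b1, the other chain, on all (-0.060, not called). Markers of the stimulators differed between the groups. Of 11 B cell markers measured, 5 were tested, with 4 higher in cB and 1, Pou2af1, in DC (log2 difference, cB minus DC, of -1.27). Cd79b was at least 4.84-fold and Fcmr at least 5.97-fold higher in cB. Pax5, Blk and Cd22 were undetected on every array, and the summed intensity of the list was 3686 to 4410 on cB and 2425 to 2680 on DC arrays. Of 14 myeloid and dendritic cell markers 4 were tested, with 3 higher in DC and 1, Fscn1, in cB (log2 difference of 1.48). The monocyte marker Cd14 exceeded its cB level in DC by at least 5.03-fold, and the cytokine Il1b by at least 4.49-fold. These bounds hold for the background correction used here. In normalized values deposited by the authors the log2 difference, cB minus DC, was smaller: 0.97 for Cd79b, -0.97 for Cd14 and -0.92 for Il1b. Undetected on every array were 8 of the 14, Itgax, Csf1r and Itgam among them, and the summed intensity was 2176 to 2560 on cB and 2498 to 2760 on DC arrays. The part of stimulator RNA in the carrier values below was not tested. In such bulk samples fewer cells of a kind and less RNA per cell cannot be told apart.

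Of the 106 members, 36 were higher in cB and 23 higher in DC in limma's fit over all genes tested, with an adjusted p below 0.05. This is 55.7% of the members, where 61.4% of all 7167 tested genes were called (29.8% toward cB and 31.6% toward DC). The members' share lies near this background and is not a result about carriers as a whole. The values below concern which of them differed. Whether any substrate class differs from other genes was not tested. Of the 59 called, 17 were at least 2-fold higher in cB and 13 at least 2-fold higher in DC. In 54 of the 106 members the 2 sets of arrays did not overlap, against 56.8% of all tested genes. Because a member could pass the detection rule through the group in which it is high, the 88 members detected on at least 3 arrays of each group were also counted alone. Of these 33 were higher in cB and 20 in DC, where 62.6% of all genes so detected were called (29.7% toward cB and 32.9% toward DC). The median log2 difference, cB minus DC throughout, was 0.045 over the members and -0.026 over all tested genes. Single members ranged from -3.03 (Slc19a2, a thiamine carrier) to 3.48 (Slc7a3, a carrier of arginine and lysine).

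**Figure D1:**
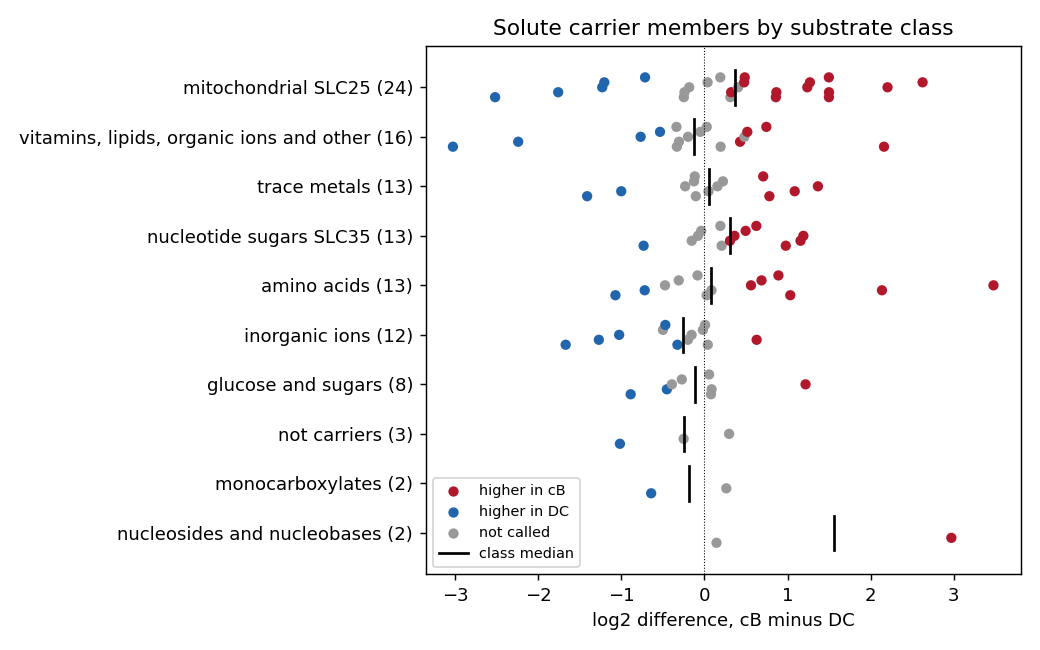
Each point is a solute carrier member, placed by its log2 difference (cB minus DC, horizontal axis) in its substrate class (vertical axis, number of members in brackets), red where called higher in cB, blue where called higher in DC and grey where not called, with a black bar at the class median. The mitochondrial SLC25 and the nucleotide sugar SLC35 classes have more red than blue points, the inorganic ion class more blue than red.

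Among 13 amino acid carriers 6 were higher in cB and 2 in DC, beside 29.8% and 31.6% of all tested genes. The other 5 were not called, and the class median was 0.085. The median had no stable sign: it was -0.049 without cB replicate 1, -0.043 without DC replicate 2 and up to 0.24 without cB replicate 4. Slc7a3, a carrier of cationic amino acids such as arginine, had levels of 9.79, 8.85, 8.85 and 10.16 on the 4 cB arrays and 6.10, 6.03, 6.04 and 5.57 on the 4 DC arrays, all on the normalized log2 scale that is used for every level below. All cB arrays lay well above all DC arrays. The difference was 3.48 ± 0.29 (SE, n = 4 per group, limma adjusted p = 5.2e-06). Slc6a9, the glycine carrier GlyT1, stood at 8.93, 7.99, 8.20 and 9.29 in cB and at 6.33, 6.19, 6.92 and 6.43 in DC. Its groups did not overlap either, although the cB arrays were widely spread, and the difference was 2.13 ± 0.28 (adjusted p = 1.1e-04). Slc16a10, which carries aromatic amino acids, was 2.05-fold higher in cB (1.03 ± 0.17), and Slc1a5, the glutamine carrier ASCT2, 1.85-fold (0.89 ± 0.17). For Slc1a5 the cB levels were 7.77, 7.28, 7.20 and 7.09 and the DC levels 6.14, 6.54, 6.45 and 6.65. Its relative Slc1a4 (ASCT1), which prefers serine and alanine, differed by 0.56 ± 0.20 with overlapping groups. That call was lost in 9 of 16 alternative settings, among them 6 of the 8 that leave out a single array. Over all 8 of these its difference lay between 0.43 and 0.74.

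Slc3a2 and Slc38a2 were higher in DC. Slc3a2, the heavy chain CD98 that brings several amino acid exchangers to the surface, had levels of 4.95, 5.89, 5.83 and 6.19 in cB and 6.88, 6.63, 6.78 and 6.86 in DC. The DC arrays lay close together and above every cB array, for a difference of -1.07 ± 0.23 (adjusted p = 0.0026). Slc38a2, the sodium-coupled carrier SNAT2 of small neutral amino acids, stood at 10.11, 9.66, 9.84 and 8.98 in cB and at 10.30, 10.34, 10.36 and 10.46 in DC, a difference of -0.72 ± 0.21 (adjusted p = 0.013). Again the DC arrays were tight and the cB arrays wide, without overlap. Slc7a6, a light chain that pairs with CD98, was not called (0.085 ± 0.23, 95% interval -0.44 to 0.61). Slc43a2 (-0.47), the kidney and gut carrier Slc6a19 (-0.31), Slc7a2 (-0.083) and Slc38a4 (0.026) were not called either, and of these Slc43a2 passed without DC replicate 2 (-0.68). Slc38a10 was 1.61-fold higher in cB, but it was detected on 3 cB arrays and 1 DC array with overlapping groups, and it lost the call in 4 of 15 alternatives, without cB replicate 2 (0.58), without cB replicate 4 (0.56) and without DC replicate 3 (0.61) among them. Several carriers that activated T cells are known for were not detected here: Slc7a1 and Slc7a11 on no array and Slc38a1 on 1, while Slc7a5 was not analysed here.

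The sizes for dim members depended on the background. The authors deposited normalized values of their own, in which Slc7a3 differed by 2.04, Slc6a9 by 1.21, Slc16a10 by 0.44, Slc1a5 by 0.41, Slc1a4 by 0.35, Slc38a10 by 0.22 and Slc3a2 by -0.39. With the background estimated over every gene name in place of those that follow the steps of the negative controls, called the wider background below, Slc7a3 differed by 1.55, Slc6a9 by 0.78, Slc16a10 by 0.17, Slc1a5 by 0.17 and Slc3a2 by -0.12. Slc1a4 (0.23) and Slc38a10 (0.062) were then no longer called. Slc38a2, a member with high signal, gave -0.62 in the authors' values and -0.83 under the wider background.

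Of 8 glucose and sugar carriers 1 was higher in cB and 2 in DC, beside 29.8% and 31.6% of all tested genes. The other 5 were not called, and the class median was -0.11. Slc2a1, the main glucose carrier GLUT1 of activated T cells, had levels of 12.35, 12.18, 12.27 and 12.51 in cB and 13.01, 12.73, 12.62 and 12.76 in DC. The DC arrays were all higher, by a small step of -0.45 ± 0.12 (1.37-fold, adjusted p = 0.0069), which did not pass when arrays were scaled by their median (-0.30). Slc2a3, the high-affinity glucose carrier GLUT3, stood at 11.54, 11.61, 11.87 and 12.08 in cB and at 11.99, 11.66, 11.41 and 11.82 in DC. The groups overlapped and the gene was not called, with a 95% interval of the difference from -0.30 to 0.42. Slc2a6, a GLUT family member of inner membranes, was 2.32-fold higher in cB (1.22 ± 0.19), and it differed by 0.53 in the authors' values and by 0.21 under the wider background. Slc2a4, the insulin-responsive GLUT4 of muscle and fat, was detected on all 4 DC arrays and on no cB array, so it passed the rule through DC alone. It was at least 1.72-fold higher there with the background used here, is 1 of the 2 sugar carriers called toward DC, and had to differ to pass. Slc2a4 differed by -0.30 in the authors' values and by -0.080 under the wider background. Slc2a8 (0.086), Slc37a1 (0.078), Slc37a3 (-0.27) and Slc45a4 (-0.39) were not called. Slc37a3 and Slc45a4 would have been called with a single array left out, Slc37a3 without DC replicate 2 (-0.54) and Slc45a4 without cB replicate 2 (-0.54) or DC replicate 4 (-0.51).

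Of the carriers of lactate and other monocarboxylates 2 of 12 measured were members. Slc16a3, the lactate exporter MCT4, was near background, with levels of 5.78, 5.61, 6.16 and 6.13 in cB and 5.56, 5.94, 5.86 and 5.26 in DC, detected on 3 and 2 arrays. The groups overlapped and it was not called (0.26 ± 0.18, 95% interval -0.15 to 0.67). Slc16a1, the lactate carrier MCT1, was detected on no array. Slc16a6, a carrier of ketone bodies, was 1.56-fold higher in DC (-0.64 ± 0.12, adjusted p = 0.0013, and -0.37 in the authors' values). Bsg, which brings MCT1 and MCT4 to the surface, and its relative Emb were detected on all arrays and not called (-0.097 and 0.20, Emb being named after its value was seen).

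The nucleoside carrier Slc29a1 gave a large difference toward cB. Slc29a1, which encodes ENT1, the equilibrative carrier through which cells salvage nucleosides such as adenosine and thymidine, had levels of 10.34, 10.59, 10.24 and 10.35 in cB and 7.78, 7.28, 7.39 and 7.19 in DC. The groups were tight and far apart: the difference was 2.97 ± 0.14 (7.83-fold, adjusted p = 1.1e-07), and 2.23 in the authors' values. Slc29a3, the lysosomal relative ENT3, was not called (0.14 ± 0.19), its cB levels being 9.41, 9.48, 8.65 and 9.64 and its DC levels 9.25 or lower, so that a single cB array lay below every DC array. The cB array at 8.65 was replicate 3, and without it the difference was 0.36 and passed. Of 8 nucleoside and nucleobase carriers in the table no other passed the detection rule, and the purine carrier Slc43a3 was detected on no array.

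**Figure D2:**
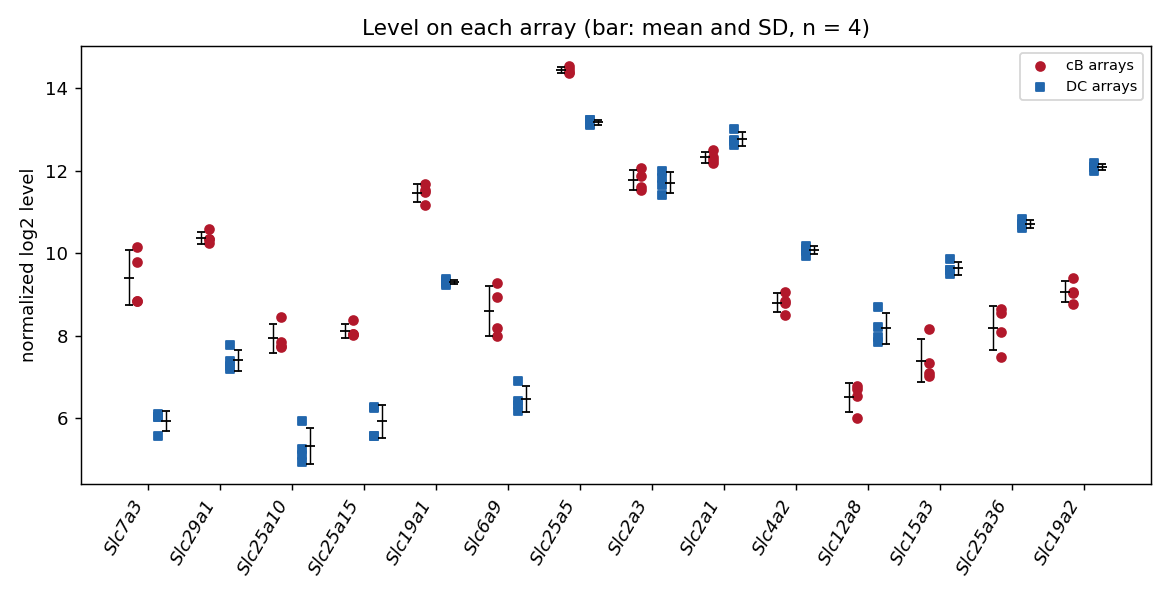
Normalized log2 level (vertical axis) of 14 members on each cB array (red circles) and each DC array (blue squares), with the mean and SD of each group beside the points. The 7 genes on the left were higher in cB, Slc2a3 overlapped between the groups, and the 6 genes on the right were higher in DC without overlap.

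Mitochondrial carriers of the SLC25 family, were the largest class. Of 24 members 12 were higher in cB, 5 in DC and 7 were not called, beside 29.8% and 31.6% of all tested genes, and the median was 0.36. Whether the class differs from other genes was not tested. Among the 21 detected on at least 3 arrays of each group the counts were 11 and 3, with a median of 0.40. Most of these proteins sit in the inner mitochondrial membrane and exchange nucleotides, metabolites, cofactors and metals with the cytosol. Slc25a17, counted among those higher in DC, is a carrier of peroxisomes. A limma fit to the authors' values called 12 of 22 higher in cB and 6 in DC, beside 31.7% and 33.6% of all genes there. The class median in those values was 0.25. Under the wider background the class median fell to 0.096.

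Several carriers of metabolites were higher in cB. Slc25a10, the dicarboxylate carrier that exchanges malate and succinate for phosphate, had levels of 7.75, 7.73, 7.84 and 8.46 in cB and 5.12, 4.95, 5.26 and 5.95 in DC, where it was detected on 1 array only, so it passed the detection rule mainly through cB and its DC level is close to background. The groups did not overlap, and the difference was 2.62 ± 0.23 (adjusted p = 7.8e-06), 1.15 in the authors' values and 0.49 under the wider background. Slc25a15, the ornithine carrier of the urea cycle, stood at 8.05, 8.38, 8.02 and 8.06 in cB and at 5.58, 6.26, 6.28 and 5.58 in DC. It differed by 2.20 ± 0.19 (1.06 in the authors' values and 0.50 under the wider background). Slc25a1, the citrate carrier that delivers the carbon for fatty acid and sterol synthesis in the cytosol, had cB levels of 9.98, 10.02, 10.06 and 10.31 and DC levels of 8.44, 8.54, 8.82 and 8.59, a difference of 1.5 ± 0.12 (2.82-fold). Slc25a12, the aspartate and glutamate carrier of the malate-aspartate shuttle, differed by 0.86 ± 0.20, whereas Slc25a11, the oxoglutarate and malate carrier of the same shuttle, did not pass (0.038 ± 0.084, 95% interval -0.15 to 0.23). The difference between these 2 carriers was not tested.

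Several carriers of cofactors and both mitoferrins were higher in cB, and the coenzyme A carriers Slc25a17 and Slc25a42, given below, in DC. Slc25a39, required for glutathione in mitochondria, differed by 1.5 ± 0.11, with cB levels from 9.57 to 9.78 and DC levels from 7.95 to 8.33. Slc25a26, which brings in S-adenosylmethionine, differed by 0.86 ± 0.12 and Slc25a16, linked to coenzyme A, by 0.48 ± 0.15. The iron carriers mitoferrin-1 (Slc25a37) and mitoferrin-2 (Slc25a28) were both higher in cB, by 1.24 ± 0.16 and 0.48 ± 0.12. Slc25a12, Slc25a26, Slc25a37 and Slc25a16 were smaller in the authors' values, at 0.48, 0.53, 0.72 and 0.23. Under the wider background they were at 0.26, 0.33, 0.42 and 0.10, where Slc25a16 was not called. Without cB replicate 1, DC replicate 1 or DC replicate 4 Slc25a16 was not called either (0.39, 0.44 and 0.40).

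Slc25a5, which encodes the ATP and ADP translocase ANT2 found in growing cells, had levels of 14.47, 14.55, 14.40 and 14.37 in cB and 13.11, 13.24, 13.23 and 13.13 in DC. The arrays of each group lay close together, and the difference was 1.27 ± 0.090 (2.41-fold, adjusted p = 1.6e-06), or 1.26 in the authors' values. Slc25a4, the translocase ANT1 of heart and muscle, was detected on no array. Slc25a3, the phosphate carrier that serves ATP synthase, was not called (-0.18 ± 0.14), nor were Slc25a25, an ATP-magnesium and phosphate carrier (0.40 ± 0.19), Slc25a30 (0.31 ± 0.39) and Slc25a14 (0.19 ± 0.12). The glycine carrier Slc25a38 was not called (-0.25 ± 0.11) but was in 4 of 16 alternatives, without DC replicate 3 (-0.32) among them. Slc25a25 passed without cB replicate 2 (0.58), Slc25a30 without cB replicate 4 (0.77) and Slc25a3 without DC replicate 2 (-0.31).

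Slc25a33 and Slc25a36 both carry pyrimidine nucleotides into mitochondria. Slc25a33 stood at 10.54, 10.59, 10.05 and 10.48 in cB and at 9.03, 8.93, 9.11 and 8.61 in DC, so that it was 2.82-fold higher in cB (1.5 ± 0.15, adjusted p = 2.0e-05). Slc25a36 stood at 8.65, 7.49, 8.55 and 8.09 in cB and at 10.83, 10.72, 10.62 and 10.68 in DC. It was 5.73-fold higher in DC (-2.52 ± 0.23, adjusted p = 8.2e-06), so the pair went in opposite directions, each without overlap between the groups. In the authors' values Slc25a33 differed by 1.27 and Slc25a36 by -2.05. Also higher in DC were Slc25a45 (-1.76 ± 0.21, and -1.06 in the authors' values), Slc25a17, the carrier of coenzyme A and other cofactors in peroxisomes (-1.23 ± 0.14), and Slc25a20, the carnitine-acylcarnitine carrier that admits fatty acids to oxidation. Slc25a20 had cB levels from 8.20 to 8.49 and DC levels from 9.35 to 9.68, a difference of -1.20 ± 0.11. It was listed as detected on 2 cB and 3 DC arrays, with a detection p-value off the steps of the negative controls. Slc25a42, a coenzyme A carrier near background, differed by -0.71 ± 0.26 and lost the call in 8 of 15 alternatives. In 5 of these an array was left out, with differences of -0.75 to -0.49. Slc25a44, which carries branched-chain amino acids, was not called (-0.24 ± 0.20).

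**Figure D3:**
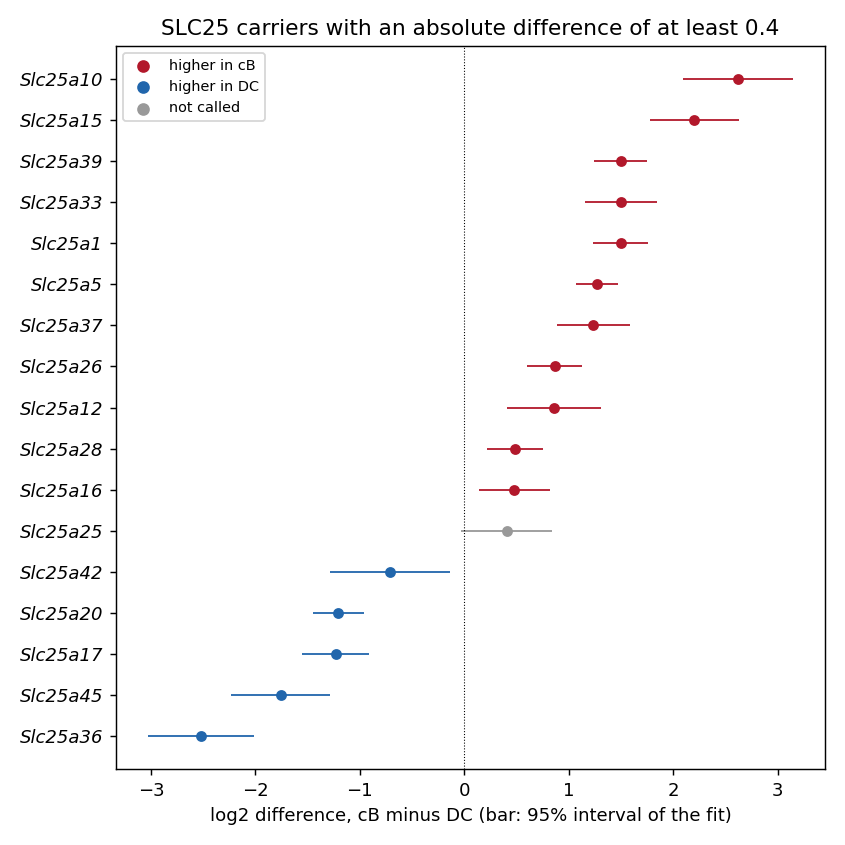
Log2 difference (cB minus DC, horizontal axis) of the 17 SLC25 members with an absolute difference of at least 0.4 (vertical axis, in order of the difference), with the 95% interval of the limma fit as a bar, red where called higher in cB, blue where called higher in DC and grey where not called. Slc25a10, which was detected on 1 DC array only, Slc25a15 and a group of 3 near 1.5 lie at the cB end and Slc25a36 alone beyond -2 at the DC end.

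The start regions of 4 of these genes are shown because they are the called SLC25 members that hold the same 6-base word, CACGTG. This word is the core of the E-box that MYC and related factors are known to bind, although the genes moved in both directions. Slc25a14, which was not called, also holds the word and is not shown. Each sequence is the RefSeq window on GRCm38.p6 from 250 bases before to 50 bases after the annotated start, 5′ to 3′ on the gene's strand, with the word in capitals. The window of Slc25a33 lies at chr4:149774218-149774517 on the minus strand, that of Slc25a36 at chr9:97110992-97111291 (minus), that of Slc25a1 at chr16:17928170-17928469 (minus) and that of Slc25a15 at chr8:22398228-22398527 (minus). Slc25a15 has 2 such windows, and the word is in the 1 shown.
Slc25a33: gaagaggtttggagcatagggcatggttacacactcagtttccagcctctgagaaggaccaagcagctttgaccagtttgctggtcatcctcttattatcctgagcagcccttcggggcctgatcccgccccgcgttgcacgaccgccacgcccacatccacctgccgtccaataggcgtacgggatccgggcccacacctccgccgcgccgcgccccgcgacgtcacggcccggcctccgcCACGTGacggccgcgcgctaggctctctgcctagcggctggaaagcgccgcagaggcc
Slc25a36: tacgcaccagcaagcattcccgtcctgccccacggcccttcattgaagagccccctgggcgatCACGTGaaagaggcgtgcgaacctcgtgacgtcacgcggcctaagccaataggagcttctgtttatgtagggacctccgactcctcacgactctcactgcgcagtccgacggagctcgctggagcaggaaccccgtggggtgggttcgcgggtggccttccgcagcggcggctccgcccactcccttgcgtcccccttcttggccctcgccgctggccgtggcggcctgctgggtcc
Slc25a1: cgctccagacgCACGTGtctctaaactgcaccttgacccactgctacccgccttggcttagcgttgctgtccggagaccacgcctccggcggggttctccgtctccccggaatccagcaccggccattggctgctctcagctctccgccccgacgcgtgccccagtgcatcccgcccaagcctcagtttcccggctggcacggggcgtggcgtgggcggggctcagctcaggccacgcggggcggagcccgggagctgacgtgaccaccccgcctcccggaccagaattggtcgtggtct
Slc25a15: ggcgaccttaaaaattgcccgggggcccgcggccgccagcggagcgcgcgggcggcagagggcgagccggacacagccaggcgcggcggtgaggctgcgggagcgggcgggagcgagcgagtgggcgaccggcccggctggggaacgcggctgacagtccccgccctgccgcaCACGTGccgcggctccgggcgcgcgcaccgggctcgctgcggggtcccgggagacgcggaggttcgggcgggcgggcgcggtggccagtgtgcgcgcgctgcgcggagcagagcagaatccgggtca

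The word begins at position 243 of the window in Slc25a33, at 64 in Slc25a36, at 12 in Slc25a1 and at 174 in Slc25a15, counted from 1 at the first base. Of the 106 members 86 had a window, and 13 of these held CACGTG, which reads the same on both strands, against 8.09% of all genes with a window. That share covers 27025 genes whether or not they were detected here, so it is an unlike set. The share among tested genes was not computed. CACGTG was present in 5 of 29 members higher in cB, 2 of 18 higher in DC and 6 of 39 not called, so the word was found in all 3 sets. Besides the 3 SLC25 genes, Slc29a1 and Slc39a11 were the members higher in cB that held it, and Slc12a7 was the other in DC. Of 2 further words searched on both strands, TGATGNAA, the core of the site of ATF4 with CEBP partners, was found in Slc1a4 alone (1.16% of the members against 4.51% of genes). TGACGTCA, the cAMP response element, was found in Slc25a36 and Slc25a25 (2.33% against 2.03%). The words were chosen with the differences known, a match is not a binding site, and members without a match lack only these letters in this window.

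Vitamin carriers gave a contrast within a family. Slc19a1 and Slc19a2 are relatives, the first carrying reduced folates and the second thiamine. Slc19a1 had levels of 11.69, 11.48, 11.17 and 11.54 in cB and 9.38, 9.29, 9.24 and 9.32 in DC. It was 4.47-fold higher in cB (2.16 ± 0.12, adjusted p = 3.0e-07), and 1.94 in the authors' values. Slc19a2 had levels of 9.06, 8.77, 9.41 and 9.05 in cB and 12.002, 12.0952, 12.1989 and 12.0952 in DC. This was the largest difference toward DC among the members, 8.14-fold (-3.03 ± 0.13, adjusted p = 7.3e-08), and was -2.73 in the authors' values. Slc5a6, the carrier of biotin and pantothenate, was 1.68-fold higher in cB (0.74 ± 0.19, and 0.50 in the authors' values), and the vitamin C carrier Slc23a2 was not called (-0.20 ± 0.18).

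Slc15a3, a lysosomal carrier of histidine and peptides that takes part in innate sensing, stood at 7.02, 7.34, 7.09 and 8.17 in cB and at 9.60, 9.50, 9.61 and 9.87 in DC. The groups did not overlap, and the difference was -2.24 ± 0.23 (4.73-fold, adjusted p = 2.1e-05) and -1.58 in the authors' values. Its relative Slc15a4 was 1.45-fold higher in DC (-0.53 ± 0.14, and -0.28 in the authors' values). Slc15a3 is known mostly from macrophages and dendritic cells. Cd14 and Il1b, given above, and Fcer1g (-1.15 ± 0.23) were higher on the same DC arrays, while Fscn1 was higher in cB (1.48). Lyz2 was detected on 3 DC arrays and on no cB array, and Itgax and Csf1r were detected on no array. Among the DC arrays Cd14 and Il1b were lowest on replicate 3, at 6.75 and 5.93, where Slc15a3 stood at 9.61. The other DC arrays were at 7.60 to 8.03 for Cd14 and at 7.64 to 7.77 for Il1b. Of 3 other carriers known mostly from myeloid cells, Slc11a1 was higher in cB (1.09 ± 0.13), Slc8a1 was not called (0.040) and the iron exporter Slc40a1 was detected on no array. The part of myeloid RNA in Slc15a3 was not tested.

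Slc6a6, the taurine carrier, was detected on all arrays, with levels of 12.26, 12.17, 11.95 and 11.91 in cB and 12.68, 12.78, 12.97 and 12.92 in DC. It was 1.7-fold higher in DC (-0.77 ± 0.12, adjusted p = 2.7e-04) and gave -0.75 in the authors' values. Among carriers of lipids and organic ions, the choline-like carrier Slc44a2 (0.52 ± 0.14) and Slc10a7 (0.43 ± 0.093) were higher in cB. Slc44a2 did not pass with median scaling (0.53), nor Slc10a7 under the wider background (0.044) or with no correction (0.14). The carnitine carrier Slc22a5 was not called (0.19 ± 0.095) although its groups did not overlap. The fatty acid carriers Slc27a3 (0.48) and Slc27a4 (-0.33), the sialic acid exporter Slc17a5 (-0.050) and Slc46a3 (0.028), Slc10a3 (-0.34) and Slc22a7 (-0.31) were not called. Of these Slc27a3 passed without DC replicate 1 (0.77), Slc10a3 without cB replicate 2 (-0.44) and Slc22a7 without cB replicate 4 (-0.44). In all, this mixed class had 4 of 16 members higher in each direction and a median of -0.12. Of all tested genes 29.8% were called toward cB and 31.6% toward DC.

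Of 12 carriers of inorganic ions 5 were higher in DC and 1 in cB, beside 31.6% and 29.8% of all tested genes. The other 6 were not called, and the class median was -0.26. That median was -0.044 under the wider background and -0.13 with no background correction. Among the 7 detected on at least 3 arrays of each group the counts were 5 and 0. Slc4a2, the anion exchanger AE2 that lets bicarbonate out in return for chloride, had levels of 8.85, 8.52, 8.79 and 9.07 in cB and 10.18, 10.12, 9.95 and 10.06 in DC. Every DC array was higher, by -1.27 ± 0.13 (2.41-fold, adjusted p = 1.6e-05). Of the cation-chloride family, Slc12a8 stood at 6.01, 6.55, 6.71 and 6.79 in cB and at 8.21, 7.85, 8.69 and 7.97 in DC (-1.67 ± 0.22), and the potassium-chloride carrier Slc12a7 differed by -1.03 ± 0.13. In the authors' values Slc12a8 gave -0.89 and Slc12a7 -0.41, and under the wider background -0.48 and -0.14. The sodium-proton exchanger Slc9a8 differed by -0.47 ± 0.17 and lost the call in 8 of 16 alternatives. With a single array left out it ranged from -0.59 to -0.31, the last without cB replicate 2. The single member toward cB, the anion exchanger Slc26a6 (0.63 ± 0.23), was detected on 4 cB arrays and 1 DC array and lost the call in 10 of 15 alternatives, among them 5 of the 8 that leave out an array. Slc8b1, the mitochondrial sodium-calcium exchanger that the table lists under the older name Slc24a6, was not called (-0.15 ± 0.10). Neither were Slc4a8 (0.007), Slc12a9 (-0.019) and the magnesium carriers Slc41a2 (-0.50) and Slc41a3 (-0.20), of which Slc41a2 passed without cB replicate 2 (-0.74) and Slc41a3 without cB replicate 4 (-0.31).

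Of 13 trace metal carriers 4 were higher in cB and 2 in DC, beside 29.8% and 31.6% of all tested genes. The class median was 0.049. The copper importer Slc31a1 (CTR1) stood at 9.18, 9.29, 9.58 and 9.57 in cB and at 7.98, 8.14, 7.93 and 8.11 in DC. It was 2.57-fold higher in cB (1.36 ± 0.12, adjusted p = 6.5e-06) and its groups did not overlap. The iron carrier of endosomes Slc11a2 (DMT1) was higher in cB by 0.78 ± 0.16 and its phagocyte relative Slc11a1 (NRAMP1) by 1.09 ± 0.13, or 0.41 and 0.63 in the authors' values. Tfrc, the transferrin receptor that brings iron to DMT1, was higher in DC (-0.53 ± 0.14). Of the zinc carriers, Slc39a11 was higher in cB (0.71 ± 0.13), and Slc30a9 (-1.41 ± 0.17) and Slc39a13 (-1.0 ± 0.14) in DC, the latter pair at -0.52 and -0.38 in the authors' values and at -0.17 and -0.13 under the wider background. Slc39a6 (ZIP6), which is known to admit zinc on T cell receptor signals, had cB levels of 9.44, 9.45, 9.25 and 9.47 and DC levels of 9.67, 9.67, 9.65 and 9.56. Its groups did not overlap, yet the difference of -0.23 ± 0.092 missed the threshold (adjusted p = 0.051), and it passed in 6 of 16 alternatives, without cB replicate 4 (-0.26) among them. The zinc carriers Slc30a1, Slc30a5, Slc30a6, Slc30a7, Slc39a3 and Slc39a7 were not called, with differences from -0.13 to 0.22, and Slc39a10 was detected on no array.

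The SLC35 carriers, which load the Golgi and endoplasmic reticulum with nucleotide sugars and sulfate donor for glycan building, were higher in cB in 7 of 13 members and in DC in 1, with a median of 0.31. All 13 were detected on at least 3 arrays of each group. Of all tested genes 29.8% were called toward cB and 31.6% toward DC. Whether the SLC35 class differs from these was not tested. Slc35b4, which carries UDP-xylose and UDP-N-acetylglucosamine, stood at 9.77, 9.66, 9.57 and 9.61 in cB and at 8.52, 8.39, 8.33 and 8.61 in DC (1.19 ± 0.10, 2.28-fold). Slc35f2, a member of the cell surface, differed by 1.16 ± 0.088 and Slc35c2 by 0.98 ± 0.11, or 0.67 and 0.62 in the authors' values. The GDP-fucose carrier Slc35c1 differed by 0.50 ± 0.083, Slc35a4 by 0.36 ± 0.11 and Slc35e1 by 0.31 ± 0.093, and the last 2 did not pass with median scaling (0.42 and 0.35). The 2 carriers of PAPS, the sulfate donor, went apart: Slc35b2 was higher in cB (0.62 ± 0.11), and Slc35b3, with levels of 9.70, 9.43, 9.65 and 9.65 in cB and 10.17, 10.32, 10.40 and 10.47 in DC, was higher in DC (-0.73 ± 0.11, adjusted p = 2.1e-04). Slc35a1 and Slc35a2, the carriers of CMP-sialic acid and UDP-galactose, were not called (0.19 ± 0.22 and 0.21 ± 0.15), though Slc35a1 passed without cB replicate 4 (0.41). Nor were Slc35a3 (-0.15), Slc35b1 (-0.078) and Slc35e3 (-0.039).

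Of the 3 SLC-named genes that encode no carrier, Slc9a3r1 differed. It encodes the scaffold EBP50 (NHERF1), which ties membrane proteins to ezrin, and its levels were 10.66, 10.94, 10.80 and 10.96 in cB and 11.78, 11.94, 11.96 and 11.75 in DC (-1.02 ± 0.11, 2.02-fold, adjusted p = 2.1e-05). Slc4a1ap was not called (-0.25 ± 0.15) and passed without cB replicate 2 (-0.40), and Slc7a6os, which lies next to the carrier gene Slc7a6, was not called (0.30 ± 0.25).

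Transporters with other names, from a list of 65 that holds pumps, channels, ABC transporters and partners, were in the table in 58 cases and tested in 39. Of these 17 were higher in cB and 6 in DC, beside 29.8% and 31.6% of all tested genes, with a median of 0.20. The 6 with the lowest p were Vdac1, a channel of the outer mitochondrial membrane (1.76 ± 0.13), Mfsd1, a lysosomal protein (1.25 ± 0.10), Mtch1, a SLC25 relative of the outer membrane (1.45 ± 0.12), Abcb6, a porphyrin transporter (1.98 ± 0.18), and Mfsd10 (1.25 ± 0.11), all higher in cB, and Abcd4, a lysosomal transporter of vitamin B12 (-1.78 ± 0.15), higher in DC. Abcb6 and Abcd4 were smaller in the authors' values, at 0.94 and -0.78. Of the mitochondrial pyruvate carrier, Mpc2 was higher in cB (0.60 ± 0.21), detected on 3 cB and 2 DC arrays. Its partner Mpc1 was not analysed here, and Ucp2 was detected on no array.

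The authors' own normalized values held 89 of the 106 members, and all 89 had the same sign there. A limma fit to those values called 34 of the 89 higher in cB and 25 higher in DC, against 31.7% and 33.6% of all 7266 genes, and 57 members were called in both fits in the same direction. The difference was smaller there by over 1.5 times in 29 of the 58 called members that it holds.

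**Figure D4:**
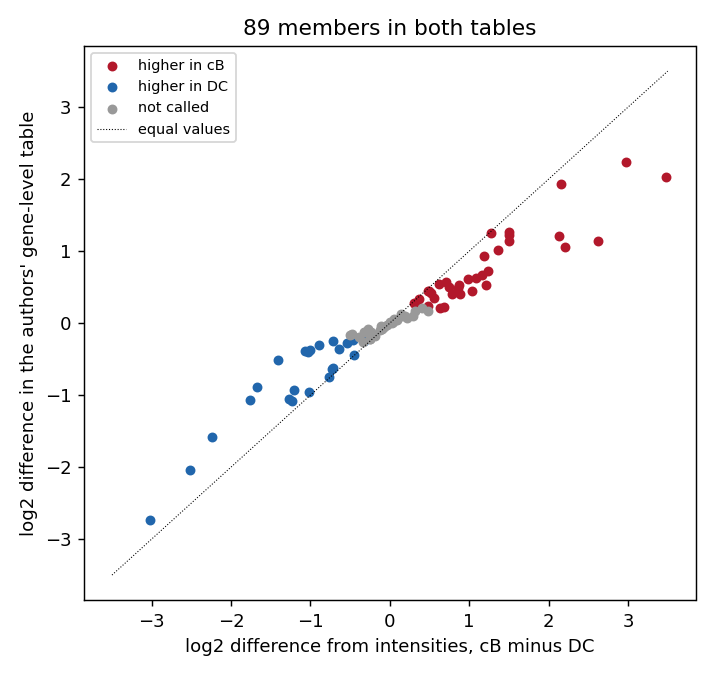
Log2 difference (cB minus DC) of the 89 members found in both tables, from the intensities with background correction (horizontal axis) and from the authors' values (vertical axis), coloured by the call on the intensities, with the line of equal values dotted. Every point has the same sign on both axes, and most lie nearer to 0 on the vertical axis.

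The detection rule cut through a group of dim rows. Just inside it were 4 members detected on exactly 4 arrays, namely Slc2a4 (a bound, given above), Slc38a10 (0.69), Slc41a2 (-0.50) and Slc8a1 (0.040). Just outside were 12 rows detected on 3 arrays, among them Slc15a2, on DC arrays only, and Slc36a2, on cB arrays only. Rows below the rule were mostly dark, with a median intensity of 159, but 4 had a mean intensity over 300. Among them were the cation-chloride carriers Slc12a2 and Slc12a3 (means of 406 and 358) and the zinc carrier Slc39a4 (420), all gene names whose detection p-value is off the steps of the negative controls. In the authors' values Slc39a4 differed by -0.91, Slc12a3 by 0.37 and Slc12a2 by 0.084.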

How the data were processed

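The deposited table of non-normalized values gives an average bead intensity on a linear scale and a detection p-value for each gene name on each of 8 Illumina arrays, per the file headers. A further deposited table holds the authors' log2 values for 7266 genes, normalized by a method not given in the sources used here. Another 16 columns of deposited values per probe, from the same arrays, were not used. Samples were grouped by their titles.

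Intensities were corrected with limma 3.58.1 in R 4.3.3: normexp with an offset of 16, the background taken from the 13929 gene names whose detection p-values were whole multiples of 1 part in 798 (tolerance 0.001 of a step), then quantile normalization and log2. The other 4209, 22 members among them, are off these steps, as values combined over probes would be. The estimated background SD was then at most 25.4 intensity units on an array, and 195 to 344 over all gene names. The 7167 genes detected (p below 0.05) on at least 4 of 8 arrays were fitted with lmFit and eBayes, cB minus DC, and Benjamini-Hochberg adjusted, with a threshold of 0.05. Where no array of a group detected a gene, its fold is a bound ("at least"): the mean of the other group against the mean of, on each array, the lowest signal of a detected gene or the gene's own signal, whichever was higher. Such a bound holds for this background and offset and was not computed under the alternatives. With 4 arrays per group their number limits the precision. The steps were tested on simulated data.

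Members, classes and lists were chosen with earlier results of these data known. Genes named were, per class, up to 5 members by lowest p, the 10 largest non-overlapping differences in each direction, members known from T cell activation, members undetected in a group or on exactly 4 arrays, and the 3 with the highest level, and of other transporters the 6 with the lowest p and 5 chosen by name; other members were named after their values were seen, to account for all. Current symbols matched 105 names and a synonym 1, in the RefSeq table of GRCm38.p6. Alternatives were another background, offset, scaling, filter, the authors' table, a replicate block and leaving out each array. Some genes are not reported here by name, though the counts and medians hold them.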

Additional observations from a re-analysis of the deposited data

Results flagged for a closer look

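Among 110 groups of 4 arrays, for the 55 members taken by the naming rule, 5 held an array that stood apart from the other 3 by more than Dixon's critical value at the 95% level, and chance alone gives about 1 in 20 such groups. Slc25a10 on cB replicate 4 was at 8.46 (others 7.73 to 7.84), Slc25a15 on cB replicate 2 at 8.38 (8.02 to 8.06), Slc39a6 on cB replicate 3 at 9.25 (9.44 to 9.47), Slc7a3 on DC replicate 4 at 5.57 (6.03 to 6.10) and Slc9a8 on DC replicate 1 at 7.25 (7.52 to 7.57). No array held more than 1 of them.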

How the results depend on the processing

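Under 16 alternatives the members higher in cB numbered 31 to 37 and those higher in DC 17 to 26, where the main values were 36 and 23. The low of 17 was counted over only the 78 members detected on all 8 arrays, and the authors' values hold 89 of the 106. With 1 array left out the ranges were 33 to 37 and 20 to 26. Of the 59 called members 46 passed in every alternative that measured them, 27 higher in cB and 19 in DC, and none of the 59 changed sign in any. Sizes of dim members moved most: 32 of 59 shrank by over 1.5 times with the background from every gene name and 30 of 59 with no correction. The SLC25 median was then 0.096 and 0.22, and 0.25 in the authors' values. Among genes detected on all 8 arrays the amino acid median was 0.72 on 8 members and the sugar median 0.067 on 6. With the replicate number as a block 34 members were called toward cB and 22 toward DC. Slc1a4, Slc25a42 and Slc26a6 were then not called (adjusted p = 0.051, 0.053 and 0.077 in limma). Arrays with the same number correlated in their deviations at 0.11, 0.13, 0.18 and 0.082, each array best with its own number. The array names of cB and DC samples with the same number are also consecutive in the labels, which do not say that they were paired. Of the alternatives, medians of the 3 smallest classes were taken only under the wider background and in the authors' values.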
